A study of Rattus norvegicus with 6 samples.

Results

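Glucose, phosphate, sulfate and water are recovered from the glomerular filtrate by carriers and channels of the proximal tubule, and the RNA of 10 of them was followed here in rat renal cortex after o-anisidine hydrochloride, an aromatic amine salt. The genes were fixed by name: the glucose carriers Slc5a1, Slc5a2 and Slc2a2, the phosphate carriers Slc34a1, Slc34a3 and Slc20a2, the sulfate and dicarboxylate carriers Slc13a1, Slc13a3 and Slc26a1, and the water channel Aqp1. All 10 were on the array, with 21 probes between them, out of 31087 genes tested. The animals were Sprague-Dawley males, 5 weeks old when purchased, on a basal diet with tap water. Control rats (n = 3) received water and treated rats (n = 3) received 700 mg/kg/day of o-anisidine hydrochloride, both for 4 weeks, and each rat's cortex was hybridised to 1 single-colour Agilent array. The series' design describes the rats of a group as biological replicates.

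The proximal tubule takes solutes up across its apical brush border together with sodium and passes them to the blood across the basolateral membrane, where the sodium pump maintains the gradient. SGLT2 (Slc5a2) takes up most filtered glucose in the early segments, SGLT1 (Slc5a1) takes up the rest further down, and GLUT2 (Slc2a2) lets glucose leave to the blood. NaPi-IIa (Slc34a1) and NaPi-IIc (Slc34a3) take up phosphate under the control of parathyroid hormone and FGF23. NaS1 (Slc13a1) takes up sulfate, Sat-1 (Slc26a1) exchanges it across the basolateral membrane, NaDC3 (Slc13a3) imports dicarboxylates, and Aqp1 carries water. HNF1 is a transcription factor of the proximal tubule whose recognition sequence is a palindrome.

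Bases upstream of the start of 3 apical carriers are shown. They were picked because Slc34a1 and Slc34a3 had a Pearson r with Slc5a2 of 0.82 and 0.74 over the 6 rats, given as a description. Between Slc34a1 and Slc34a3 themselves r was 0.32. Slc5a2 was highest in o-anisidine rat 2 and lowest in o-anisidine rat 3, while Slc34a3 was highest in control rat 2 and lowest in o-anisidine rat 1. Whether the 3 genes are regulated together was not tested. Capitals mark the stretch closest to the HNF1 consensus, taken as GTTAAT, any 1 base and ATTAAC and searched over the 250 bases before the start (the consensus reads alike on both strands). Where stretches tied, all of them are in capitals. Each is written 5′ to 3′ on the gene's strand and comes from RefSeq on the GRCr8 assembly.
Slc5a2, chr1:192277371-192277620, + strand: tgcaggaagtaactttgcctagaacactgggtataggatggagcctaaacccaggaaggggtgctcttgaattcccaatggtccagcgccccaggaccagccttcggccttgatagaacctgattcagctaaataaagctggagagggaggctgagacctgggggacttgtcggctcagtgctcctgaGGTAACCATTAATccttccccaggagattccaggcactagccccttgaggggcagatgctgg
Slc34a1, chr17:9238984-9239233, - strand: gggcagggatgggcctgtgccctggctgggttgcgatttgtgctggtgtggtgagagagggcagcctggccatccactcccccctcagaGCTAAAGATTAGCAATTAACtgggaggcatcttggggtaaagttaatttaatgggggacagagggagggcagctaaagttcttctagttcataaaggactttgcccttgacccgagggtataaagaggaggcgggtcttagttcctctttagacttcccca
Slc34a3, chr3:28447998-28448247, - strand: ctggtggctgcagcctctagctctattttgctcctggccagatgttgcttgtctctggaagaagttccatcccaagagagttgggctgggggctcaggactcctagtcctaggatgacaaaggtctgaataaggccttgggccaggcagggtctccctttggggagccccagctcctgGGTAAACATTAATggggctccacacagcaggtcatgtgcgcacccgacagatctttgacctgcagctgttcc
The closest stretch of each held 9 of the 12 fixed letters of the consensus, and 7.74% of 33469 windows of the same length held a match at least as close. It began 62 bases before the start in Slc5a2 and 72 in Slc34a3, while Slc34a1 had 2 overlapping stretches that tied, beginning 161 and 154 bases before the start. Of 9 members with a window in the RefSeq table, Slc26a1 also reached 9 letters, Slc2a2 and Slc13a1 reached 8, Slc5a1 reached 7, and Slc13a3 and Aqp1 reached 6. These matches describe letters and are not evidence of binding.

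On each array 41670 to 43630 of the 61657 probes passed the scanner's test for signal well above background, and no spot was saturated. Every probe of the 10 genes passed it on all 6 arrays. Values are log2 signals relative to the 75th percentile of the array, a scale on which levels of different probes cannot be set against each other. Sums of linear levels over a list are set only between arrays, and bright probes weigh most in them whatever the amount of RNA. Markers of the proximal tubule were present throughout, and none of 10 passed the test (limma, Benjamini-Hochberg over 31087 genes; 0 also at an unadjusted p under 0.05). Their summed linear level lay between 2136 and 2302 in controls and between 2110 and 2470 after o-anisidine, so the groups overlapped. In whole cortex, fewer cells of a type and less RNA per cell cannot be told apart.

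None of the 10 carriers and channels passed the test after 4 weeks of o-anisidine. With this scaling the values of treated rats overlapped those of controls for all 10. The count of 0 stands beside 0.0611% of all genes past an adjusted p of 0.05 and 18.4% of all genes whose groups did not overlap. The overlap depended on the setting. With quantile normalization 3 of the 10 did not overlap, all lower, beside 3186 of 31087 genes lower without overlap. With another background correction 1 did not overlap and was higher, and 1 was lower (3591 and 2453 genes). With the percentile over probes detected on all arrays 1 was lower (3117 genes), and with the mean of a gene's probes 1 was higher (2889 genes). At an unadjusted p under 0.05 there was 1 member, Slc26a1, against 11.5% of all genes. The median difference of the 10, o-anisidine minus control, was 0.020 on the log2 scale, and that of all genes was 0.0037. The median of the 10 changed sign in other settings, to -0.061 with quantile normalization, -0.035 with the mean of a gene's probes and -0.031 with slide as a block. Differences ran from -0.22 for Slc13a1 to 0.48 for Slc26a1, and the adjusted p from 0.412 to 0.996. The 95% interval of the difference, unadjusted for the number of genes, lay within 1.5-fold in either direction for 9 of the 10, and within 2-fold for all 10. A difference that misses the threshold does not show equal levels. These intervals hold only for the brightest probe of each gene in a fit without slide, with 3 rats per group. With slide as a block the SE was larger for all 10, at 0.28 against 0.18 for Slc26a1. Some dimmer probes also had wider intervals, such as -0.74 to 0.078 for the dimmest Slc20a2 probe. Larger differences than these bounds were therefore not excluded.

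**Figure D1:**
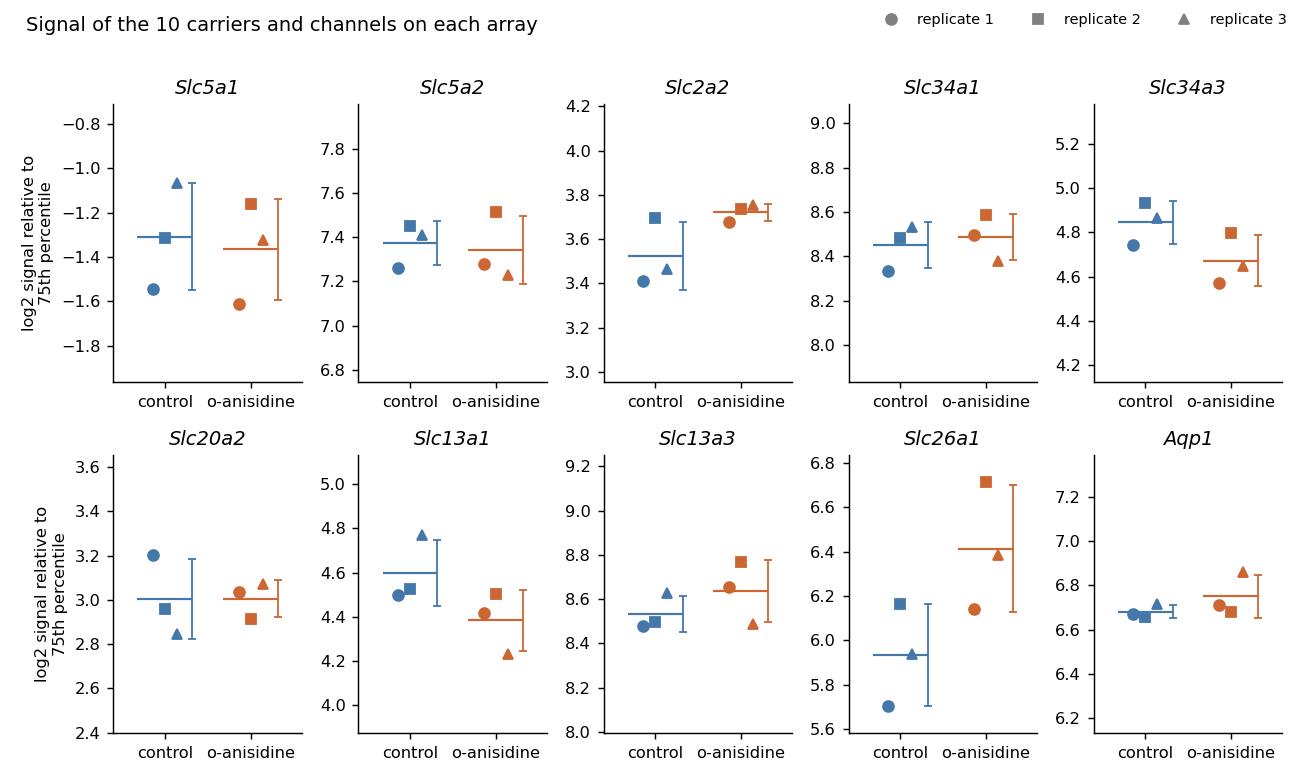
Log2 signal relative to the array's 75th percentile for the brightest probe of each gene, with control rats in blue and o-anisidine rats in orange (n = 3 each), the symbol giving the replicate, the horizontal line the group mean and the bar its SD. All panels span the same number of log2 units; Slc26a1 has the largest difference of the 10, 0.48, and in every panel the groups overlap.

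Slc5a2, the main glucose carrier of the early proximal tubule, stood at 7.26, 7.45 and 7.41 in control rats 1, 2 and 3 and at 7.28, 7.52 and 7.23 in o-anisidine rats 1, 2 and 3. The treated rats thus held both the highest and the lowest of the 6 values. The difference was -0.031 (SE 0.11, 95% interval -0.29 to 0.23, limma adjusted p = 0.931), or 0.979-fold. Slc5a1, the carrier of the late segments, was at -1.55, -1.31 and -1.06 in controls and at -1.61, -1.16 and -1.33 after o-anisidine. Its difference of -0.057 (SE 0.17, adjusted p = 0.919) was smaller than the SD of either group, 0.24 and 0.23, and its interval was -0.46 to 0.35. Slc2a2, the basolateral exit for glucose, was at 3.41, 3.70 and 3.46 in controls and at 3.68, 3.74 and 3.75 after o-anisidine. Only control rat 2 reached into the treated range. The difference of Slc2a2 was 0.20 (SE 0.096, interval -0.035 to 0.43, adjusted p = 0.490), or 1.15-fold, and exceeded both SDs, 0.15 and 0.039.

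Slc34a1, the principal phosphate carrier of the brush border, was at 8.33, 8.48 and 8.53 in controls and at 8.50, 8.58 and 8.38 after o-anisidine. The groups lay over each other, with a difference of 0.037 (SE 0.092, interval -0.19 to 0.26, adjusted p = 0.904) that became -0.13 with quantile normalization. Slc34a3, its electroneutral relative, was at 4.74, 4.93 and 4.86 in controls and at 4.57, 4.80 and 4.65 after o-anisidine. Treated rats 1 and 3 lay below all controls and rat 2 lay inside their range. The difference of Slc34a3 was -0.17 (SE 0.093, interval -0.40 to 0.054, adjusted p = 0.530), or 0.887-fold. Slc20a2, a phosphate carrier of a different family (PiT-2) that many tissues express, was at 3.20, 2.96 and 2.85 in controls and at 3.04, 2.91 and 3.07 after o-anisidine. All 3 treated values of Slc20a2 lay inside the control range, and the group means differed by 0.0022 (SE 0.11, interval -0.27 to 0.27, adjusted p = 0.996), or by -0.010 with quantile normalization.

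Slc13a1, the sodium-sulfate carrier of the brush border, was at 4.50, 4.53 and 4.77 in controls and at 4.42, 4.50 and 4.23 after o-anisidine. Treated rats 1 and 3 lay below all controls, while rat 2 was level with control rat 1. The difference was -0.22 (SE 0.11, interval -0.49 to 0.060, adjusted p = 0.520), or 0.861-fold, and lay between -0.27 and -0.13 with 1 rat left out, closest to 0 without control rat 3. Slc26a1, the basolateral sulfate exchanger, was at 5.70, 6.16 and 5.94 in controls and at 6.14, 6.71 and 6.39 after o-anisidine. Treated rats 2 and 3 lay above all controls, and rat 1 lay just below control rat 2. This was the largest difference of the 10 at 0.48 (SE 0.18), or 1.39-fold with an interval of 1.02- to 1.90-fold, and it did not pass limma's test over all genes (unadjusted p = 0.0388, adjusted p = 0.412). Slc13a3, which brings dicarboxylates into the cell across the basolateral membrane, was at 8.48, 8.50 and 8.63 in controls and at 8.66, 8.77 and 8.49 after o-anisidine. Treated rats 1 and 2 lay above all controls and rat 3 lay inside their range, with a difference of 0.10 (SE 0.098, interval -0.13 to 0.34, adjusted p = 0.714) that became -0.063 with quantile normalization.

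Aqp1, the water channel of the proximal tubule and thin descending limb, had the smallest SD of the genes in control rats, which were at 6.67, 6.66 and 6.72 (SD 0.031). Treated rats were at 6.71, 6.68 and 6.86, so that rat 3 alone lay above the controls. The difference was 0.070 (SE 0.078, interval -0.12 to 0.26, adjusted p = 0.766), or 1.05-fold, and 0.014 without o-anisidine rat 3. Over the 10 genes the SD ranged from 0.031 to 0.24 among controls and from 0.039 to 0.29 among treated rats. The difference between group means exceeded both SDs for Slc2a2, Slc34a3, Slc13a1 and Slc26a1 and did not for the other 6.

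For 6 of the genes more than 1 probe was present, and the probes could be compared with each other. None of the 21 probes passed the test in a fit of 42036 probes, of which 0.0690% passed, and 3 had an unadjusted p under 0.05 (11.8% of all probes). The groups did not overlap for 3 of the 21, against 18.8% of all probes. All 3 probes of Slc2a2 had a positive difference, of 0.20, 0.30 and 0.16 from the brightest to the dimmest. The middle one was at 1.98, 2.01 and 2.00 in controls and at 2.29, 2.25 and 2.35 after o-anisidine, with no overlap and an SD of 0.015 in controls and 0.050 in treated rats (interval 0.14 to 0.46, limma unadjusted p = 0.00350, adjusted p = 0.187). The dimmest probe of Slc2a2 did not overlap either. The second probe of Slc5a1 was at -2.38, -2.02 and -2.03 in controls and at -2.57, -2.38 and -2.39 after o-anisidine, which did not pass the test (difference -0.30, limma adjusted p = 0.422). Its groups were apart by less than the last printed digit. The 3 probes of Slc5a2 gave nearly equal differences, from -0.055 to -0.031. The 3 probes of Slc13a1 all had negative differences, of -0.22, -0.10 and -0.12. For Slc34a1 the difference was 0.037 for the brighter probe and -0.091 for the other, and over the 4 probes of Slc20a2 it ran from 0.0022 for the brightest to -0.33 for the dimmest.

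**Figure D2:**
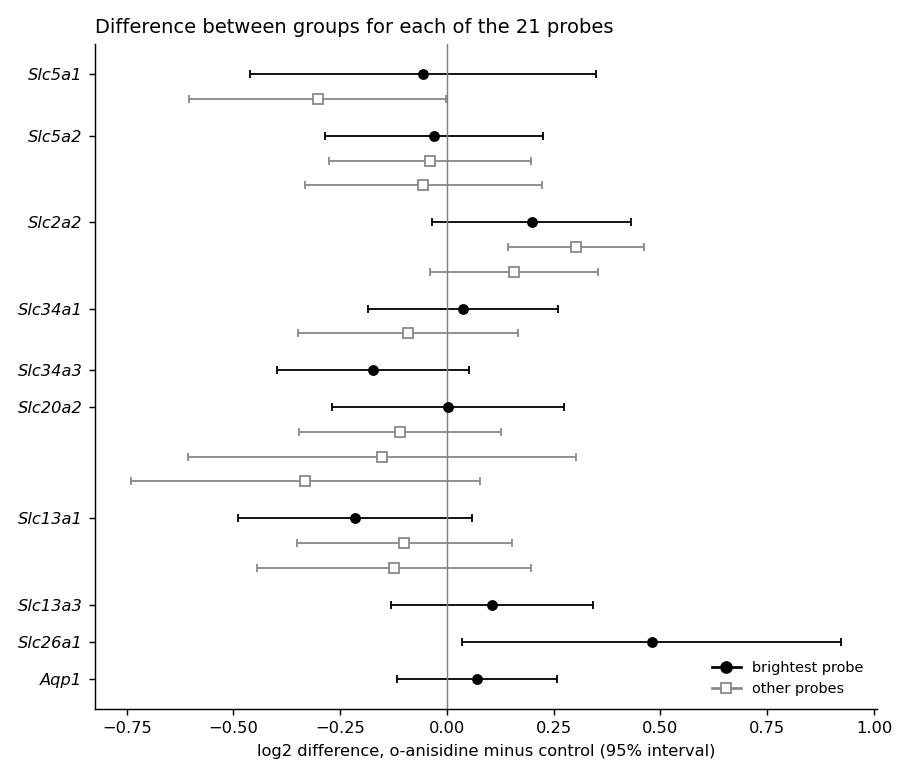
Log2 difference, o-anisidine minus control, with its unadjusted 95% interval for each of the 21 probes (3 rats per group), the filled circle marking the brightest probe of a gene and open squares the others. The intervals of the middle Slc2a2 probe (0.14 to 0.46) and of Slc26a1 lie above 0, that of the second Slc5a1 probe lies below 0, and none of the 21 passed after adjustment.

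Rats ranked in a shared order for several of the genes. Control rat 1 was the lowest control for 8 of the 10, the exceptions being Slc20a2, for which it was the highest, and Aqp1. Among treated rats, rat 2 was the highest for 7 of the 10, namely Slc5a1, Slc5a2, Slc34a1, Slc34a3, Slc13a1, Slc13a3 and Slc26a1. The 75th percentile by which each array was scaled was also highest in control rat 1, at 1031, and lowest in o-anisidine rat 2, at 923. With quantile normalization in its place, control rat 1 was the lowest control for 6 of the 10 and o-anisidine rat 2 the highest treated rat for 7. Across the 6 arrays, Slc20a2 had a Pearson r of -0.77 with Slc5a2 and -0.89 with Slc34a1, while Slc13a3 had 0.86 with Slc34a1. These values describe 6 rats sharing the same scaling and carry no test.

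Tubule injury genes differed between the treated rats in another way. Havcr1, which encodes the injury molecule KIM-1, was at -4.85, -3.61 and -5.23 in control rats 1, 2 and 3 and at 0.46, -4.39 and -3.02 in o-anisidine rats 1, 2 and 3. Spp1 (osteopontin) was at 3.15, 3.03 and 3.07 in controls and at 6.39, 3.16 and 5.16 after o-anisidine. Rat 2, the highest for 7 of the 10 genes, thus had the lowest level of both among treated rats. The summed linear level of the 7 injury genes lay between 52.9 and 63.8 in controls and was 171, 64.3 and 117 in o-anisidine rats 1, 2 and 3. Spp1 and Cd24 made up 68.6% to 86.3% of that sum on the 6 arrays. Krt19, a keratin of stressed tubules, lay 3.55, 2.81 and 2.28 above the control mean in o-anisidine rats 1, 2 and 3, and Clu (clusterin) lay 1.71, 1.08 and 1.15 above it, so that rat 2 was not the lowest of the treated rats for Krt19. None of the 7 passed the test. Of them, 3 (Krt19, Clu and Lcn2) had an unadjusted p under 0.05, all with a positive difference, beside 11.5% of all genes in either direction. Slc5a1, Slc2a2, Slc34a3 and Slc26a1 were lowest among treated rats in rat 1, where the injury sum was highest, while Slc5a2, Slc34a1, Slc13a1 and Slc13a3 were lowest in rat 3. The part of injury in these values was not tested.

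**Figure D3:**
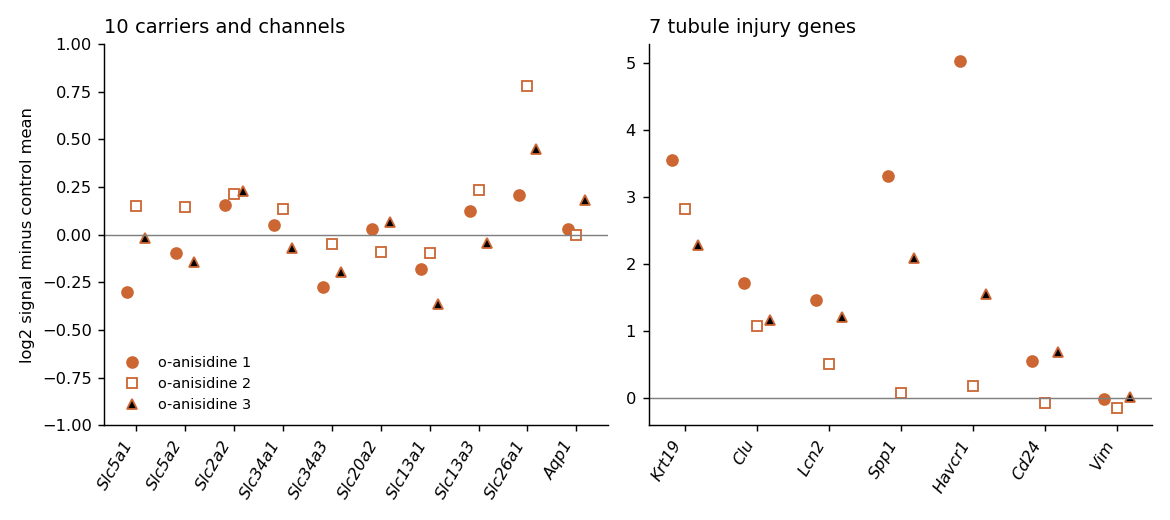
Log2 signal of each o-anisidine rat minus the control mean for the 10 genes (left) and 7 tubule injury genes (right), on y axes of different range, with 1 symbol per rat. On the left all points lie between -0.37 and 0.78, while on the right Havcr1 of rat 1 lies 5.02 above the control mean and rat 2 has the lowest Havcr1 and Spp1 of the treated rats.

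Markers of other parts of the cortex differed between the groups to different extents. The summed level of 5 red blood cell genes lay between 553 and 750 in controls and between 1087 and 1310 after o-anisidine. The globin genes Hbb and Hba-a1 made up most of that sum (control means 7.90 and 8.54). Of the 5, 4 had an unadjusted p under 0.05 and groups that did not overlap, all higher, beside 9.55% of all genes higher without overlap. The other, Slc4a1, is also in the collecting duct list and had a difference of 0.26 (limma adjusted p = 0.721). Alas2, the first enzyme of haem synthesis in red cells, had a difference of 2.13 (SE 0.28, adjusted p = 0.0993), and the globin genes Hbb and Hba-a1 had 1.09 and 0.90 (adjusted p = 0.112 and 0.112). Ahsp, the alpha-haemoglobin chaperone, passed the test (difference 2.34, limma SE 0.21, adjusted p = 0.0419), and it missed the threshold in 10 of 17 other settings, each single array left out among them (adjusted p up to 0.201). The sum of 7 collecting duct genes lay between 265 and 287 in controls and between 176 and 255 after o-anisidine, with 0 past the test. At an unadjusted p under 0.05 were 3 (Avpr2, Scnn1g and Aqp2), all with a negative difference. The differences of the rest of that list ran from -0.28 to 0.26, the latter for Slc4a1, the only 1 of the 7 above 0. Over all genes, 11.5% had an unadjusted p under 0.05 in either direction. The sums of the early proximal tubule (375 to 396 against 350 to 440) and late proximal tubule genes (58.1 to 83.6 against 56.0 to 108) overlapped. So did those of thin and thick limb, endothelial, podocyte, fibroblast and immune genes, and those of 3 distal convoluted tubule genes. The thin limb list holds the member Aqp1, which made up most of its sum (control mean 6.68). That sum is therefore not separate from the members. In these lists too there were genes at an unadjusted p under 0.05. They were 1 of thin limb and 1 of distal convoluted tubule, both lower, and 1 of early proximal tubule, higher. All 6 podocyte genes had a negative difference, with 0 at an unadjusted p under 0.05. Of these, 2 were lower without overlap, beside 2760 of 31087 genes. Of the 73 marker entries tested, Ahsp was the only one past the threshold. The part of any of these cell types in the carriers' values was not tested.

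Around the 10 genes stand other carriers and regulators of the same solutes, listed with earlier results of these data known. Of 47 such genes, 40 were tested and 0 passed (limma), with a median difference of 0.085 and 24 of the 40 above 0, against 50.9% of all genes. That median was -0.0042 with slide as a block, where 19 of the 40 were above 0, and 0.026 with quantile normalization. It was 0.015 without control rat 1 and 0.011 without o-anisidine rat 2. At an unadjusted p under 0.05 there were 4 of the 40 (Vdr, Slc20a1, Slc4a4 and Car2), all with a positive difference. Over all genes the share was 11.5% in either direction. The groups did not overlap for 6 of the 40, these 4 and Atp1b1 among them and all higher, beside 9.55% of all genes that did not overlap in that direction. Among phosphate genes, Vdr, the receptor of active vitamin D, was at 0.023, -0.039 and 0.084 in controls and at 0.27, 0.37 and 0.48 after o-anisidine. Its difference was 0.35 (SE 0.083, adjusted p = 0.223). Slc20a1, the PiT-1 carrier of the same family as Slc20a2, was at 1.24, 1.07 and 1.02 in controls and at 1.32, 1.52 and 1.51 after o-anisidine (difference 0.34, SE 0.097, adjusted p = 0.298). Kl, which encodes the FGF23 co-receptor Klotho, had a difference of -0.26 (SE 0.14, adjusted p = 0.516).

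Of the 14 genes of sodium, proton, bicarbonate and water handling, none passed. A positive difference was seen for 10 of the 14, beside 50.9% of all genes. Slc4a4, the sodium bicarbonate cotransporter, was at 5.18, 5.36 and 5.40 in controls and at 5.60, 5.73 and 5.50 after o-anisidine (difference 0.30, SE 0.10, adjusted p = 0.364). Atp1b1, the beta subunit of the sodium pump, was at 8.23, 8.22 and 8.28 in controls and at 8.37, 8.50 and 8.36 after o-anisidine. Its difference was 0.16 (SE 0.072, adjusted p = 0.452), which became 0.010 with quantile normalization. Car2, the cytosolic carbonic anhydrase, had 0.18 (SE 0.075, adjusted p = 0.434). Slc9a3, the apical sodium-proton exchanger, had -0.051 (SE 0.12, adjusted p = 0.895), and 0.020 with another background correction.

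Other hexose carriers and their relatives showed no gene past the test and none without overlap among 9. The smallest p belonged to Slc5a10, a sodium-coupled hexose carrier (difference 0.44, SE 0.29, adjusted p = 0.606). It was followed by Slc2a9, a urate carrier named as a glucose transporter (-0.13, SE 0.12, adjusted p = 0.728), and Slc5a12, a lactate carrier (0.12, SE 0.13, adjusted p = 0.752). Single rats moved these values: Slc5a10 was 0.19 without control rat 2 and 0.71 without control rat 3. Slc2a9 was -0.24 without control rat 1 and -0.035 without control rat 3, and Slc5a12 was 0.034 and 0.22 without the same rats. Among 5 further sulfate and dicarboxylate carriers, none passed and all overlapped. Slc25a10, the mitochondrial dicarboxylate carrier, had 0.17 (SE 0.092, adjusted p = 0.521), Slc13a2, the apical citrate carrier, had 0.21 (SE 0.16, adjusted p = 0.652), and Slc26a6, an apical anion exchanger, had -0.14 (SE 0.12, adjusted p = 0.698). Without o-anisidine rat 2, Slc13a2 was 0.070 and Slc25a10 0.11, and without control rat 2, Slc26a6 was -0.028.

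**Figure D4:**
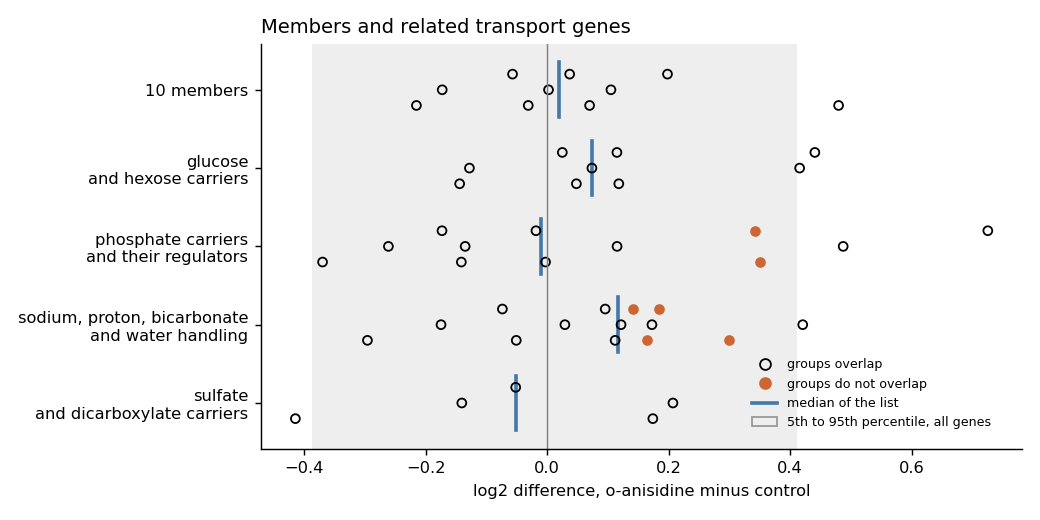
Log2 difference, o-anisidine minus control, of the 10 members and of 40 related genes in 4 lists (points), with each list's median (blue line) and the 5th to 95th percentile of all 31087 genes (grey band, -0.39 to 0.41). Filled points, all from the phosphate and the sodium lists and all above 0, are the 6 genes whose groups did not overlap.

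The genes whose levels over the 6 arrays ran closest to Slc5a2, among 11607 others with a symbol, were Eprs1, a tRNA synthetase (Pearson r = 0.996, 6 arrays), Uqcrb, a subunit of respiratory complex III (0.988), and C7h22orf23 (0.985). For Slc34a1 they were Miga2 (0.993), the glycolytic enzyme Pgk1 (0.985) and Ankrd42 (0.983). With 6 arrays, 94 genes exceeded an r of 0.9 with Slc5a2 and 132 with Slc34a1. The likeness is a description of these rats without a test.

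All controls and o-anisidine rat 3 were on 1 slide and o-anisidine rats 1 and 2 on another. Within the shared slide, which the slide as a block also gives, the differences were -0.017 for Slc5a1, -0.14 for Slc5a2, 0.23 for Slc2a2, -0.072 for Slc34a1, -0.20 for Slc34a3 and 0.067 for Slc20a2. They were -0.37 for Slc13a1, -0.044 for Slc13a3, 0.45 for Slc26a1 and 0.18 for Aqp1. None of the 10 passed within the slide, where the treated group is a single rat assumed to vary like the controls, or with slide as a block. Among the related genes named above, slide as a block moved Slc5a10 to 0.80, Kl to -0.49, Slc2a9 to -0.23, Slc4a4 to 0.19, Slc13a2 to 0.069, Slc25a10 to 0.043 and Slc5a12 to -0.0052.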

How the data were processed

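RNA of renal cortex was measured on 6 single-colour arrays, 1 per rat, grouped by the sample titles. Per the file headers, the deposited processed intensity is the spot signal after background subtraction and detrending by Agilent Feature Extraction 10.7.1.1, unscaled between arrays. Spot and background intensity are deposited median pixel values, and the other deposited columns used are 0 or 1 flags, per the file headers. Feature Extraction 10.7 is named in the submitters' processing notes. The authors' value table of scaled intensity served as an alternative: each column tracks the processed signal (r = 0.999999 on the log2 scale) of another replicate of its group, so replicate numbers follow the scanner files and groups are unaffected.

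Log2 processed intensity was scaled to the array's 75th percentile over 61657 non-control probes. Kept were 42036 probes without an outlier flag (16 had one) that passed the background test on every array of at least 1 group. Probes were named by accession through RefSeq (GRCr8): 27447 probes matched 15278 symbols. A gene was its brightest kept probe. Groups were compared with limma 3.58.1 (R 4.3.3) over all genes, two-sided, Benjamini-Hochberg, threshold 0.05, and the fit was tested on simulated data. The precision rests on 3 arrays per group. The members, gene lists and tests were chosen with earlier results of these data known. Named were all members and, per related list, the 3 smallest p (some results are not reported here); Havcr1, Spp1, Krt19, Clu, Lcn2, Ahsp, Avpr2, Scnn1g, Aqp2, Alas2, Hbb, Hba-a1, Cd24 and Slc9a3 were chosen after their values were seen. Alternatives were background correction, scaling, filters, probe rule, slide, replicate number, variance model, the value table and leaving out each array. Arrays with the same replicate number did not deviate together (r = 0.020, 0.077 and 0.012).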

Additional observations from a re-analysis of the deposited data

How the results depend on the processing

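The counts of members, member probes and related genes past the threshold were 0 in all 50 alternative fits, over 17 settings. The smallest adjusted p reached in any of them was 0.257 for a member (Slc26a1), 0.0966 for a member probe (Slc2a2) and 0.0932 for a related gene (Slc34a2). Over all genes the number called ranged from 1 to 91 higher and from 0 to 29 lower, against 11 and 8. Slc2a2, Slc34a3, Slc13a1, Slc26a1 and Aqp1 kept their sign in all 17 settings, and Slc26a1 lay between 0.33 and 0.62. Differences near 0 changed sign, and the cause was not tested. Slc34a1 was -0.13 with quantile normalization, -0.027 as the mean of its probes and -0.072 with slide as a block or within the slide. Slc20a2 was -0.010 with quantile normalization, -0.0069 with the percentile over probes detected on all arrays and -0.15 as the mean of its probes. Slc13a3 was -0.063 with quantile normalization and -0.044 with slide as a block or within the slide, where Slc5a12 was -0.0052. Slc9a3 was 0.020 with normexp. Leaving out each array gave -0.18 to 0.066 for Slc5a1, -0.12 to 0.024 for Slc5a2, -0.021 to 0.092 for Slc34a1, -0.076 to 0.10 for Slc20a2 and -0.15 to 0.063 for Slc9a3. The sign changed without control rat 3 or o-anisidine rat 1 for Slc5a1, without control rat 2 or o-anisidine rat 1 or 3 for Slc5a2, without control rat 1 or o-anisidine rat 2 for Slc34a1, without control rat 2 or 3 or o-anisidine rat 1 or 3 for Slc20a2, and without control rat 3 for Slc9a3. Of the injury genes, Krt19 passed in 2 of the 17 settings (smallest adjusted p = 0.0357, limma). With the replicate block 0 members, 0 member probes and 0 related genes passed, as without it. With 3 rats in each group, only differences large against their spread could be called.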
